A study of Mus musculus with 12 samples.

Results

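The genes described here are the mouse Fc receptors for IgG, the adapter chains that signal for them and for related receptors, and the kinase Syk. All probe sets annotated with exactly 1 symbol out of Fcgr1, Fcgr2b, Fcgr3, Fcgr4, Fcer1g, Tyrobp, Hcst and Syk were taken, which gave 16 probe sets of 8 genes, out of 45037 probe sets and 18193 genes on the array. The brightest probe set of a gene by its mean over 12 arrays leads, and the others serve as checks. PU.1, an Ets transcription factor of myeloid and B cells, was studied in mice whose germline Spi1 gene carries the Q202L substitution (KI), which abolishes binding to c-Jun but leaves binding to DNA, in all cells of the animal. RNA was measured in ST-HSC and in GMP, from KI and from WT animals, in 3 samples of each of the 4 groups; the KI cells of the GMP gate are called GMP-like. The animals came from crosses of heterozygous mice, KI animals were homozygous, and WT littermates were the controls. By the sample records, all were C57Bl/6 newborns, ST-HSC (short-term hematopoietic stem cells) were sorted from liver as Sca-1+ c-kit+ lin- cells that were CD48+ and CD150-, and GMP (granulocyte-macrophage progenitors) as lin- c-kit+ cells without Sca-1 that carried CD34 and high FcgRII/III. The study's own text differs in the CD48 status of the ST-HSC, gives intermediate CD34 for the GMP-like gate, and names a mixed strain background and late fetal as well as newborn livers. How many animals stand behind a sample is not given, so that p-values reflect the spread of the samples alone, which may be technical.

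Fc receptors bind the constant part of antibodies and connect antibody to phagocytosis, cytokine release and degranulation in myeloid cells. The activating receptors for IgG have no signaling motif of their own and depend on the gamma chain encoded by Fcer1g, a dimer with immunoreceptor tyrosine-based activation motifs (ITAMs). Tyrobp (DAP12) is the related ITAM chain of TREM receptors, of several C-type lectins and of activating receptors of NK cells, and Hcst (DAP10) is a partner of NKG2D that recruits PI3 kinase. When the ITAM tyrosines are phosphorylated by Src kinases, Syk binds to them and activates adapters and phospholipase C gamma. Fcgr2b, the inhibitory receptor, carries the opposing motif and recruits the phosphatase SHIP.

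The values are log2 RMA values, and each difference is KI minus WT on that scale, so that a positive value is higher in KI. A single limma fit over the 4 groups served for all tests, with Benjamini-Hochberg adjustment over 45037 probe sets and a call at an adjusted p under 0.05. The array medians ranged from 5.00 to 5.10 in ST-HSC and from 4.70 to 4.79 in GMP, so levels are given by population and were not tested between populations. Replicates of a group correlated at 0.963 or more over the probe sets. Xist was high (10.67 to 11.74) on 4 WT arrays, replicates 1 and 3 of both WT populations, and low (2.98 to 3.78) on the other 8 arrays, including all KI arrays. The Xist split therefore runs partly with genotype, and each gene's differences with Xist as a covariate and without the 4 WT arrays of high Xist are given below. CD16/32, stained to gate the GMP, is the product of Fcgr3 and Fcgr2b, so both genotypes were selected for high levels of these proteins in the GMP sort and not in the ST-HSC sort.

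In KI ST-HSC, 3 of the 8 genes differed from WT ST-HSC. Fcgr3 rose, and Fcgr1 and Tyrobp fell. Among all genes tested, 1.33% were called higher and 1.68% lower in KI ST-HSC. In KI GMP-like cells, only Tyrobp was called, and it fell, while 1.19% of all genes were called higher and 1.4% lower. The median difference over the 8 genes was -0.61 in ST-HSC and -0.44 in GMP, beside -0.02 and -0.03 over all genes. KI arrays lay wholly on 1 side of the WT arrays for 5 of the 8 genes in ST-HSC, as for 22.0% of all genes, and for 4 of the 8 in GMP, as for 19.4% of all genes. The test of whether the KI difference was of another size in GMP than in ST-HSC called 0.0495% of all genes and 0 of the 8, of which 3 (Fcgr1, Fcgr3 and Tyrobp) had an unadjusted p under 0.05 by limma, as did 8.45% of all genes. In GMP, 3 of the 8 were higher and 3 lower at an unadjusted p under 0.05 by limma, beside 6.67% and 9.19% of all genes, and SAM called 0.

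**Figure D1:**
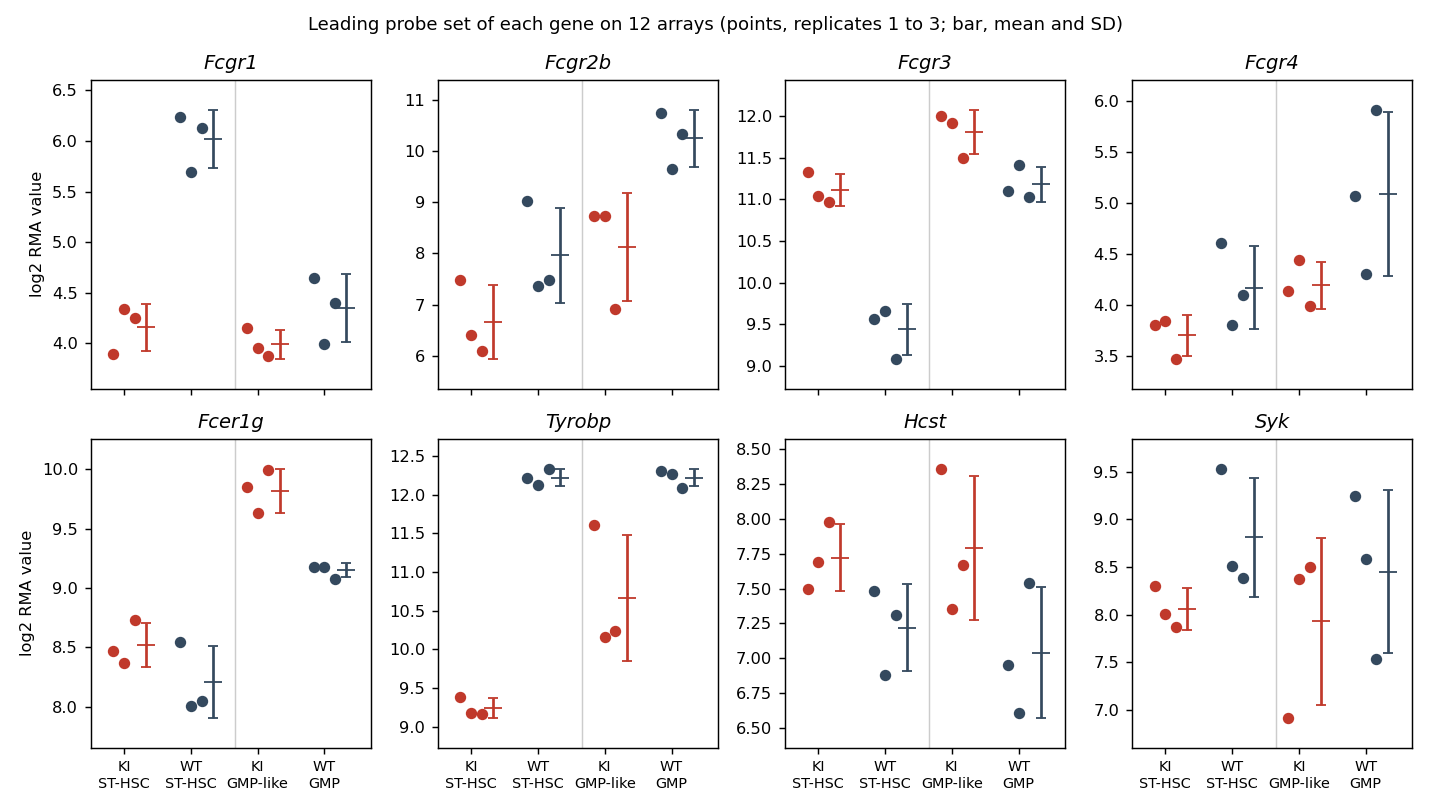
Log2 RMA values (y axis, own scale in each panel) of the leading probe set of 8 genes on each of 12 arrays, by population and genotype (x axis); points are replicates 1 to 3 and bars the mean with SD. KI points lie below WT in both populations for Tyrobp and above WT in both for Fcgr3, and Fcgr1 separates the genotypes in ST-HSC.

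Fcgr3 encodes the low-affinity activating receptor Fc gamma RIII, the CD16 of the gate. Its 1 probe set, 1448620_at, gave 11.33, 11.04 and 10.97 in KI ST-HSC, against 9.56, 9.66 and 9.09 in WT ST-HSC. Every KI ST-HSC array was above every WT ST-HSC array, by at least 1.31. The difference was 1.68 (SE 0.201, 95% interval 1.23 to 2.12, adjusted p = 0.00165 by limma), a 3.20-fold higher signal in KI. In KI GMP-like cells the probe set gave 12, 11.91 and 11.50, against 11.10, 11.41 and 11.03 in WT GMP. The GMP groups again did not overlap, although the nearest arrays were 0.09 apart. The GMP difference of 0.63 (SE 0.201) did not pass the test (limma adjusted p = 0.157), in cells that were sorted for high CD16/32.

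Fcgr1 encodes Fc gamma RI (CD64), the high-affinity IgG receptor of monocytes and macrophages. Its leading probe set, 1417876_at, gave 3.90, 4.34 and 4.25 in KI ST-HSC, against 6.24, 5.69 and 6.13 in WT ST-HSC. The KI values lay below the median probe set of their arrays and the WT values above it. The difference was -1.86 (SE 0.208, 95% interval -2.32 to -1.40, limma adjusted p = 0.00122). In GMP, 4.15, 3.95 and 3.88 in KI GMP-like cells stood beside 4.65, 3.99 and 4.40 in WT GMP, a difference of -0.36 that did not pass (limma adjusted p = 0.503). Both GMP groups lay below the median probe set of their arrays, so a GMP difference in this gene was measured at dim signal. The change in ST-HSC exceeded that in GMP by 1.5 (SE 0.295), which did not pass either (limma adjusted p = 0.133). The second probe set of Fcgr1 was dim on all arrays, with group means of 3.72 to 4.10, and differed by -0.23 in both populations. With the mean of both probe sets the difference in ST-HSC was -1.05 (limma adjusted p = 0.00416), so that its size rests on the leading probe set and on dim KI values.

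Fcgr1 and Fcgr3 moved in opposite directions in ST-HSC, and the 300 bases around their start sites are shown for that reason, beside Fcer1g, whose product pairs with both receptors. The windows are from RefSeq on the assembly GRCm38.p6, 250 bases before to 50 bases after the start site, read 5′ to 3′ on the strand of the gene, all 3 on the minus strand. Capitals mark a match to GAGGAA, a form of the Ets site that PU.1 binds, on the reverse strand as TTCCTC. The shorter GGAA core of Ets sites was not marked, and the Fcer1g window holds it in lower case.
Fcgr1, chr3:96293920-96294219: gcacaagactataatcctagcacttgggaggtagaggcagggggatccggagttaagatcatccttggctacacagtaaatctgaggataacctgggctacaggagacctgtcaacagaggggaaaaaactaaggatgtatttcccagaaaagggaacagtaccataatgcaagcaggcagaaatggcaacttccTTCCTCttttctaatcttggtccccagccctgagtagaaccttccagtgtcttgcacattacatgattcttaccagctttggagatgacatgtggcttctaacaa
Fcgr3, chr1:171059345-171059644: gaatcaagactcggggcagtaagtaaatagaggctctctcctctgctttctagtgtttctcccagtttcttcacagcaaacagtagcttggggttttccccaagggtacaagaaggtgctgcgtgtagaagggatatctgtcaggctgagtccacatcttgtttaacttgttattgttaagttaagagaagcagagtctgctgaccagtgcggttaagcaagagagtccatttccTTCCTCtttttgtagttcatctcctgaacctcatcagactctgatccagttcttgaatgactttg
Fcer1g, chr1:171234300-171234599: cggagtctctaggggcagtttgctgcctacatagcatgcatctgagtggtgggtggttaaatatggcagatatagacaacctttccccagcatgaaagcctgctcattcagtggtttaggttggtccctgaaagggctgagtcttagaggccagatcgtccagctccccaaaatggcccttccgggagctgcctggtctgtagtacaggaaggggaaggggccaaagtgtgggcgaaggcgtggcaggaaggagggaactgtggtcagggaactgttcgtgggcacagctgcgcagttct
The match began 55 bases before the Fcgr1 start site and 15 bases before the Fcgr3 start site, and a second Fcgr3 window of the table places it 6 bases before the start. Over both strands, GAGGAA was found in 5 of 9 windows of 7 of the genes (Fcgr1, both of Fcgr3, Fcgr4 and 1 of 2 of Syk), and in 28.3% of 32851 windows of all genes. The Fcgr3 windows overlap and share the same match, which is counted for each. The longer GAGGAAGT, which contains GAGGAA, was found in the Fcgr4 window, 24 bases before its start, and in 3.2% of all windows. The AP-1 motif TGANTCA was found in 0 of the 9 windows and in 7.81% of all. Fcgr3, which rose, and Fcgr1, which fell, thus both hold a match of the 6 letters. Tyrobp, which also fell, had no window to search. No binding was measured on these arrays.

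Fcgr2b encodes the only inhibitory receptor of the family and the CD32 of the gate. Its leading probe set, 1435477_s_at, gave 7.47, 6.40 and 6.10 in KI ST-HSC, against 9.02, 7.37 and 7.47 in WT ST-HSC. The highest KI array lay above the lowest WT array, and the difference of -1.30 (SE 0.601) did not pass (limma adjusted p = 0.397). The same probe set in KI GMP-like cells gave 8.73, 8.72 and 6.91, against 10.75, 9.65 and 10.34 in WT GMP. All KI arrays were below all WT arrays by at least 0.92, and replicate 3 of the KI GMP-like cells was lowest. The GMP difference was -2.13 (SE 0.601, 95% interval -3.46 to -0.80), or 22.9% of the WT signal, and missed the threshold (limma adjusted p = 0.109). Of the other 4 probe sets, 3 differed in GMP by -1.49, -1.79 and -2.0 without overlap and with limma adjusted p of 0.382, 0.176 and 0.0724. The fourth, 1447622_at, was dim, with group means of 2.25 to 2.39, and differed by 0.03 in GMP. The ST-HSC differences of these 4 probe sets were -0.79 to 0.15, smaller in size than that of the leading one, and none passed.

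Fcgr4 encodes Fc gamma RIV, an activating receptor of monocytes, macrophages and neutrophils with a preference for IgG2 subclasses. Its 1 probe set, 1425225_at, gave 3.80, 3.84 and 3.47 in KI ST-HSC, against 4.61, 3.80 and 4.10 in WT ST-HSC, and 4.14, 4.44 and 3.99 in KI GMP-like cells, against 5.07, 4.30 and 5.92 in WT GMP. The groups overlapped in both populations, at a signal below the median probe set of the arrays except in replicates 1 and 3 of WT GMP. The differences of -0.46 in ST-HSC (SE 0.354) and -0.90 in GMP (SE 0.354) did not pass (limma adjusted p = 0.672 and 0.261).

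Tyrobp differed most in size among the 8 genes in ST-HSC. Its 1 probe set, 1450792_at, gave 9.38, 9.17 and 9.16 in KI ST-HSC, against 12.21, 12.12 and 12.33 in WT ST-HSC. The 6 values form groups that are 2.74 apart, with an SD of 0.127 in KI and 0.105 in WT. The KI signal was 12.6% of that of WT, a difference of -2.98 (SE 0.314, 95% interval -3.68 to -2.29, limma adjusted p = 0.000865). This call was kept in all 12 fits that left out 1 array, with differences of -3.06 to -2.93. In these bulk samples, fewer Tyrobp-expressing cells and less Tyrobp RNA in each cell cannot be told apart.

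In KI GMP-like cells Tyrobp gave 11.60, 10.16 and 10.23, against 12.30, 12.26 and 12.09 in WT GMP. Replicate 1 of the KI GMP-like cells stood above both other KI arrays and still 0.49 below the lowest WT array. The GMP difference was -1.56 (SE 0.314, 95% interval -2.25 to -0.86, limma adjusted p = 0.0327), or 34.0% of the WT signal. The KI GMP-like replicate 1 was also highest of its group in the neutrophil markers Camp (11.19, beside 6.86 and 8.58), Ngp (9.94, beside 5.67 and 6.33) and Mmp8 (7.20, beside 4.19 and 4.45). Of the macrophage markers called in GMP, it was highest in Csf1r (8.57, beside 4.71 and 7.50) and lowest in Mpeg1 (3.24, beside 4.19 and 4.01). The part of either kind of cell in its Tyrobp value was not tested. Without this array the difference was -2.03 (limma adjusted p = 0.000161). This call did not survive several alternatives. Without any 1 of KI ST-HSC 1, 2 and 3, KI GMP-like 2 and 3, or WT GMP 1, 2 and 3, the adjusted p was 0.0543, 0.0621, 0.055, 0.0796, 0.111, 0.0944, 0.0794 and 0.0754 in that order. In a fit of the 6 GMP arrays it was 0.191, with the Xist level as a covariate 0.116, and without the WT arrays of high Xist 0.284, with differences of -1.56, -1.52 and -1.60. The Tyrobp difference was larger in ST-HSC than in GMP by 1.43 (SE 0.443), which did not pass (limma adjusted p = 0.391).

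Fcer1g, the common gamma chain, had positive differences in both populations, neither of which passed. Its 1 probe set, 1418340_at, gave 8.47, 8.37 and 8.73 in KI ST-HSC, against 8.55, 8.01 and 8.05 in WT ST-HSC, an overlap with a difference of 0.32 (SE 0.174, limma adjusted p = 0.497). The gamma chain in KI GMP-like cells gave 9.85, 9.63 and 9.99, against 9.18, 9.18 and 9.08 in WT GMP. The 3 KI arrays lay at least 0.44 above the WT arrays, whose SD was 0.0587. The GMP difference of 0.68 (SE 0.174, 95% interval 0.29 to 1.06) missed the threshold (limma adjusted p = 0.0803), and passed it without WT ST-HSC 1 (adjusted p = 0.0475).

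Hcst lies beside Tyrobp on chromosome 7. Its 1 probe set, 1419119_at, gave 7.50, 7.69 and 7.98 in KI ST-HSC, against 7.48, 6.88 and 7.31 in WT ST-HSC, and 8.36, 7.35 and 7.67 in KI GMP-like cells, against 6.95, 6.61 and 7.54 in WT GMP. The ST-HSC groups were 0.02 apart and the GMP groups overlapped. Differences of 0.50 in ST-HSC and 0.76 in GMP (SE 0.301 each) did not pass (limma adjusted p = 0.558 and 0.270). The neighboring genes thus had differences of opposite sign in both populations, of which only those of Tyrobp passed.

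Syk is the kinase that docks on phosphorylated ITAMs. Its leading probe set, 1425797_a_at, gave 8.30, 8.01 and 7.87 in KI ST-HSC, against 9.53, 8.51 and 8.39 in WT ST-HSC, groups that were 0.09 apart. In KI GMP-like cells it gave 6.92, 8.37 and 8.50, against 9.24, 8.58 and 7.54 in WT GMP, which overlapped widely. The differences were -0.75 in ST-HSC and -0.52 in GMP (SE 0.505 each, limma adjusted p = 0.616 and 0.739). The 3 other probe sets differed by -0.56 to -0.17 in ST-HSC and by -0.97 to -0.17 in GMP, and none passed. All 4 probe sets thus had negative differences in both populations. The intervals of the leading one were -1.87 to 0.36 and -1.64 to 0.59, and 1418261_at, with KI ST-HSC arrays wholly below WT, differed by -0.56 in ST-HSC (95% interval -0.96 to -0.17, limma adjusted p = 0.176).

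With Xist as a covariate and without the WT arrays of high Xist, in that order, the called genes in ST-HSC stayed called, Tyrobp at -2.95 and -2.89, Fcgr1 at -1.5 and -1.53 and Fcgr3 at 1.46 and 1.46. Leaving out those arrays keeps 1 WT array in each population, whose spread is taken from the other groups. Fcgr2b in ST-HSC was nearer to 0, at -0.65 and -0.72, and was -1.49 and -1.53 in GMP. Fcgr1 in GMP was 0.00 in both, and Fcgr4 was 0.15 and -0.09 in ST-HSC and -0.3 and -0.11 in GMP. Fcgr3 in GMP was 0.41 and 0.39. Hcst was larger, at 0.91 and 0.85 in ST-HSC and 1.17 and 1.18 in GMP, Fcer1g was 0.41 and 0.52 in ST-HSC and 0.77 and 0.64 in GMP, and Syk was -0.67 and -0.45 in ST-HSC and -0.45 and -0.65 in GMP, none of which passed. The part of Xist in these differences was not tested.

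**Figure D2:**
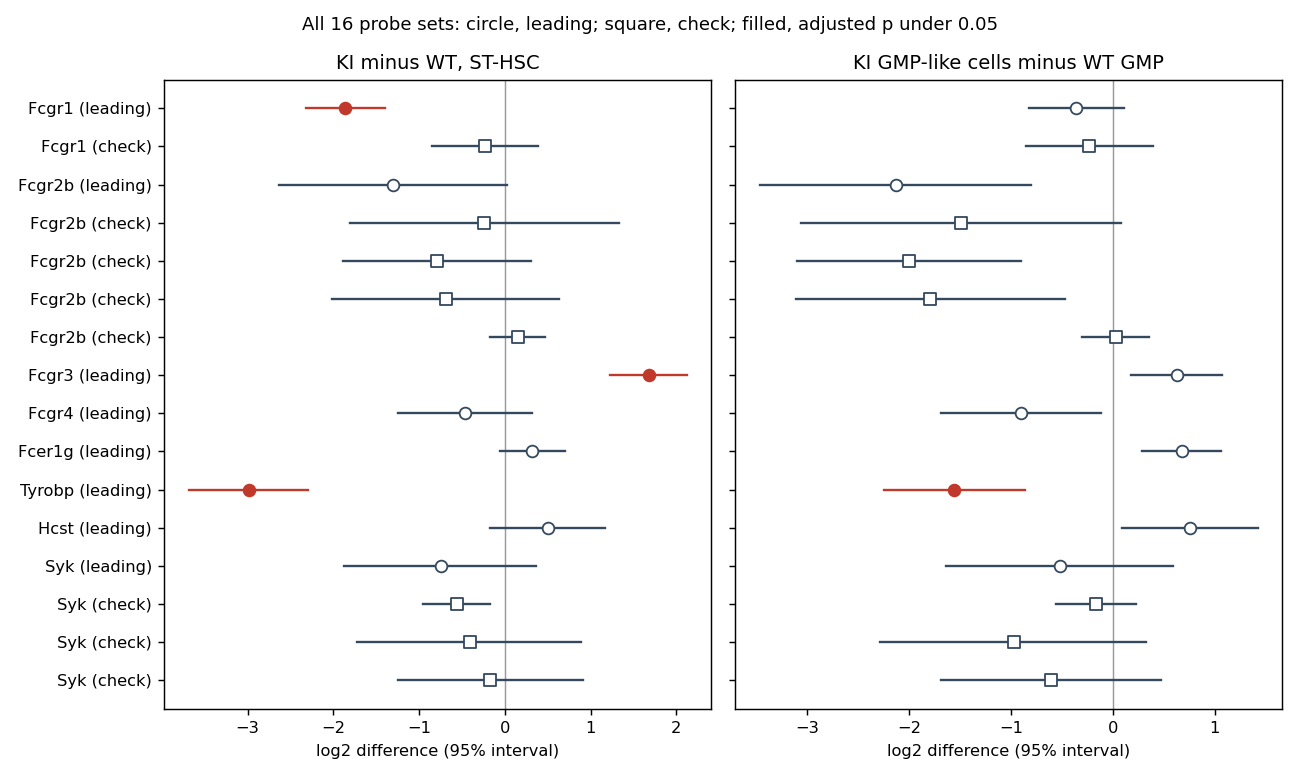
KI minus WT log2 difference with its 95% interval (x axis) for all 16 probe sets (rows) in ST-HSC and in GMP; circles are leading and squares other probe sets, filled where the adjusted p was under 0.05. Filled points are the leading probe sets of Fcgr1, Fcgr3 and Tyrobp in ST-HSC and that of Tyrobp in GMP. Some open points have intervals clear of 0 as well, among them Syk 1418261_at in ST-HSC. Such open points in GMP include the leading probe sets of Fcgr2b, Fcgr3, Fcgr4, Fcer1g and Hcst.

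The other genes of the pathway were taken as 6 lists of 82 genes, of which 71 had a usable probe set. In KI ST-HSC, 2 of the 71 rose and 8 fell, beside 1.33% and 1.68% of all genes. For the KI GMP-like cells, 3 rose and 6 fell, beside 1.19% and 1.4% of all genes. The median difference over the 71 was -0.15 in ST-HSC and -0.07 in GMP. No gene of the lists passed the test of a difference between the populations (0 of 71 by limma, with 19 at an unadjusted p under 0.05, beside 8.45% of all genes). Btk, Vav2, Ptprc and Cd79b were called lower in both populations.

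Among the other Fc receptors, 2 of 10 fell in ST-HSC and 1 of 10 in GMP. Fcgrt, the neonatal Fc receptor that recycles IgG, averaged 5.41 in KI ST-HSC and 8.07 in WT ST-HSC, a difference of -2.66 (limma adjusted p = 0.00019). Fcrla, an intracellular Fc receptor-like protein of B cells, differed by -2.86 (limma adjusted p = 0.0161), with all 3 of its probe sets called. Ms4a2, the beta chain of the IgE receptor, averaged 5.11 in KI GMP-like cells and 10.33 in WT GMP, a difference of -5.21 (limma adjusted p = 0.0106 for the leading of 2 probe sets, both called). Fcer1a, the IgE-binding chain of the same receptor, was at 4.18 and 3.26 and did not pass (0.92, limma adjusted p = 0.475).

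Among the other ITAM chains, Cd79b of the B cell receptor fell in both populations, by 2.29 in ST-HSC and 2.12 in GMP on the log2 scale (limma adjusted p = 0.0189 and 0.0321). Cd3g of the T cell receptor rose by 2.23 in GMP (limma adjusted p = 0.00646), while Cd3d and Cd3e differed by 0.12 and 0.03 and did not pass. Cd79a, the partner of Cd79b, and the leading probe set of Cd247, the zeta chain, did not pass in either population. For Cd247 in ST-HSC, 3 of 4 probe sets were uncalled and the remaining one was called.

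Of 17 receptors that pair with Fcer1g, Tyrobp or Hcst, or signal through Syk, 2 rose and 2 fell in ST-HSC and 0 passed in GMP, where 14 had a negative difference, as had 54.9% of all genes, and 4 an unadjusted p under 0.05 by limma, as had 15.9%. Klrk1, which encodes NKG2D, the partner of Hcst, differed by -3.18 (limma adjusted p = 0.038), and Klrd1, which encodes CD94, by -2.47 (limma adjusted p = 0.0061). Clec4d, a C-type lectin of myeloid cells that signals through Fcer1g, averaged 10.66 in KI ST-HSC and 8.47 in WT ST-HSC (2.18, limma adjusted p = 0.00231). Clec1b, the CLEC-2 receptor of platelets with a single-tyrosine motif that engages Syk, averaged 5.86 and 4.40 (1.46, limma adjusted p = 0.00712). Trem1, Trem2 and Trem3, receptors that signal through Tyrobp, differed by 0.17, -0.04 and -0.57 in ST-HSC and by -0.73, -0.14 and -1.33 in GMP, and none passed.

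Downstream of the chains, Btk, a Tec kinase, differed by -1.96 in ST-HSC and -1.63 in GMP (limma adjusted p = 0.0158 and 0.0432), while Fyn, a Src kinase, rose in GMP by 1.5 (limma adjusted p = 0.0198) in 1 of its 2 probe sets. Among 19 adapters and effectors, Vav2, an exchange factor for small GTPases, fell by 1.01 in ST-HSC and 1.19 in GMP on the log2 scale (limma adjusted p = 0.0243 and 0.0131), in 1 of its 3 probe sets. Vav3 differed by -2.44 in GMP (limma adjusted p = 0.0357, 3 of 3 probe sets), and Lat, the membrane scaffold of T cells, mast cells and platelets, by 2.03 (limma adjusted p = 0.0158). Of 11 genes of the inhibitory and phosphatase arm, Ptprc (CD45), the phosphatase that keeps Src kinases ready, averaged 7.42 in KI ST-HSC and 10.04 in WT ST-HSC, and 5.24 in KI GMP-like cells and 9.40 in WT GMP. Its differences of -2.62 and -4.16 passed (limma adjusted p = 0.0128 and 0.00122), in 2 of 2 probe sets in ST-HSC and 1 of 2 in GMP, and those of Inpp5d (SHIP), Ptpn6 (SHP-1) and Csk did not.

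Leaving out 1 array at a time, Fcgrt, Klrd1, Clec4d and Clec1b in ST-HSC and Ms4a2, Cd3g, Vav2 and Ptprc in GMP kept their calls in all 12 fits. Other limma fits ended 6 of these 8 calls, and the methods' t-test after Benjamini-Hochberg adjustment called no pathway gene in either population. Without the WT arrays of high Xist the adjusted p by limma was 0.108 for Clec1b, 0.0787 for Ms4a2, 0.1 for Cd3g, 0.254 for Vav2 and 0.0711 for Ptprc, and none of the 9 calls in GMP was kept. In the fit of the 6 arrays of a population it was 0.0599 for Klrd1, 0.0695 for Cd3g and 0.115 for Vav2, and with Xist as a covariate 0.0764 for Vav2. Fcgrt and Clec4d in ST-HSC were called in all limma fits that gave them a value. Clec4d had none without probe sets that can bind several genes, and SAM called no pathway gene higher in ST-HSC. In ST-HSC, Fcrla lost its call without any 1 KI ST-HSC array (adjusted p up to 0.0679 by limma), and Btk and Ptprc without KI ST-HSC 2 or 3 or WT ST-HSC 3 (up to 0.0842 and 0.0717). Cd79b lost it without any 1 KI ST-HSC array or WT ST-HSC 1 or 3 (up to 0.0963), Vav2 without KI ST-HSC 2 or 3 or WT ST-HSC 2 or 3 (up to 0.113), and Klrk1 in 9 fits, all but those without WT ST-HSC 2 or 3 or WT GMP 3 (up to 0.141). In GMP, Fyn lost it without KI GMP-like 3 or WT GMP 1 or 3 (up to 0.0677) and Lat without KI GMP-like 3 or WT GMP 3 (up to 0.0612). Cd79b lost it in 8 fits, all but those without a WT ST-HSC array or KI GMP-like 1 (up to 0.0981). Btk lost it in 8 fits, all but those without KI ST-HSC 1, WT ST-HSC 2 or KI GMP-like 1 or 2 (up to 0.115), and Vav3 in 6, without KI ST-HSC 2 or 3, KI GMP-like 1 or any 1 WT GMP array (up to 0.103).

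**Figure D3:**
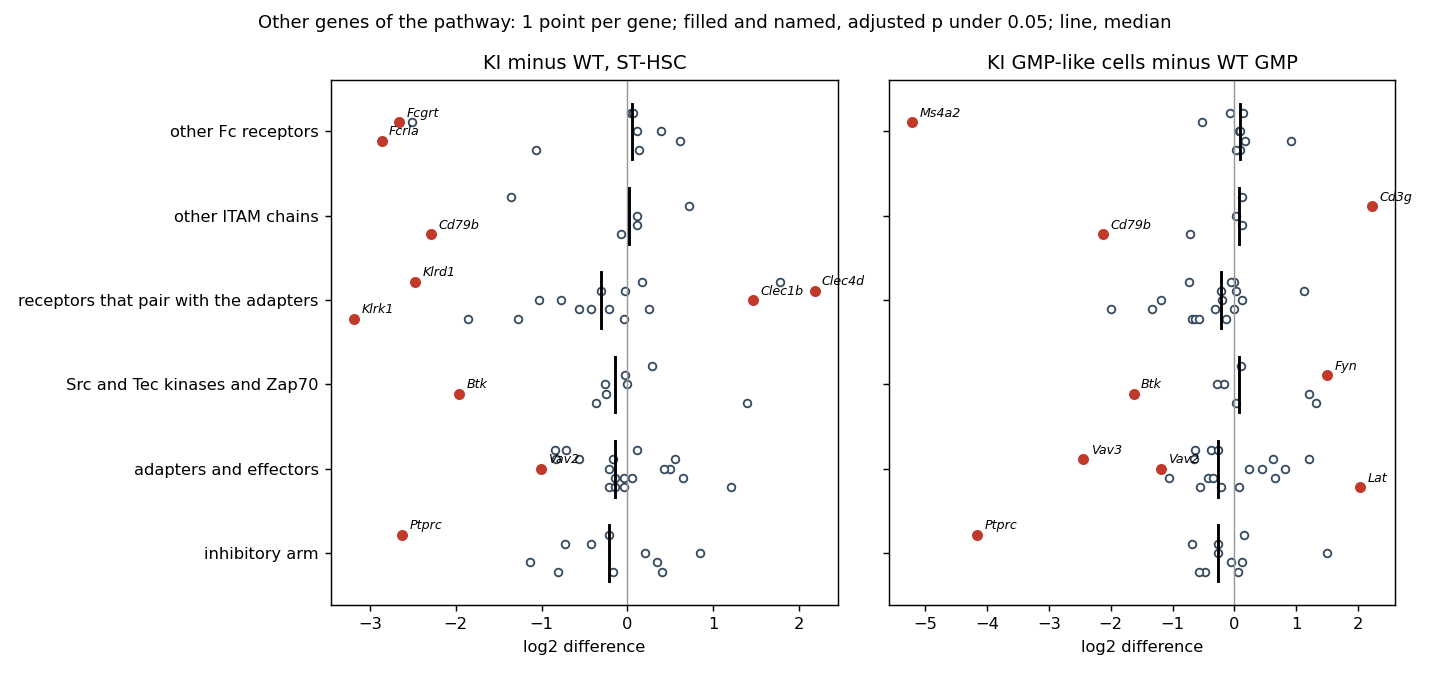
KI minus WT log2 differences (x axis) of 71 other genes of the pathway in 6 lists (rows), in ST-HSC and in GMP; each point is 1 gene, filled and named where the adjusted p was under 0.05, and the vertical line in each row is the list's median. Filled points lie on both sides of 0 in both panels, with Ptprc, Btk, Vav2 and Cd79b on the low side in both.

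The 6 GMP markers were the granule proteins Mpo, Elane, Prtn3 and Ctsg with Cebpa and Ms4a3. Their summed unlogged signal was 24441 to 29071 in KI GMP-like cells, against 33521 to 34940 in WT GMP. Ms4a3 alone was called lower there. Elane and Prtn3 also lay wholly below WT, at -1.61 and -1.10, but did not pass (limma adjusted p = 0.0865 and 0.112). Mpo, Ctsg and Cebpa differed by -0.07, 0.02 and 0.61 in GMP and did not pass. The same list summed to 19809 to 23974 in KI ST-HSC, against 12140 to 21150 in WT ST-HSC, where Ms4a3 fell and Cebpa rose (1.21, limma adjusted p = 0.0305), beside the rise of Fcgr3, and their part in it was not tested. Markers of other cells moved as well. Of 10 macrophage markers, 2 fell in each population, Csf1r and Mpeg1. The summed unlogged signal of the 10 was 203 to 281 on KI ST-HSC arrays, against 3886 to 6794 on WT ST-HSC arrays, and 338 to 646 in KI GMP-like cells, against 2190 to 3361 in WT GMP. Mpeg1 alone made up 36.1% to 65.3% of the sum in WT ST-HSC, and Csf1r alone 67.7% to 74.7% in WT GMP. C1qa, C1qb, C1qc, Mertk and Marco, markers of resident macrophages, had group means of at most 5.50 in all 4 groups and did not pass. The remaining markers, Cd68, Adgre1 and Vcam1, did not pass either. They differed by -1.39, -1.06 and 0.40 in ST-HSC and by -0.93, -1.15 and 0.62 in GMP, in that order. Csf1r, the receptor for M-CSF, is also expressed by myeloid progenitors, and the part of macrophage-lineage cells in the Tyrobp and Fcgr1 differences was not tested.

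The mast cell and basophil list summed to 3934 to 4703 on KI ST-HSC arrays, against 629 to 1957 on WT ST-HSC arrays, and to 7586 to 9573 in KI GMP-like cells, against 4003 to 7656 in WT GMP. In ST-HSC, 3 of its 7 genes rose (Cpa3, Mcpt8 and Hdc) and 0 fell, and in GMP 2 rose (Cpa3 and Cma1) and 1 fell, which was Ms4a2, itself an Fc receptor chain of the list above. Mast cells and basophils also express Fcgr3 and Fcer1g, and their part in the Fcgr3 difference was not tested. The NK and T cell list, which shares Klrd1, Cd3d, Cd3e and Cd3g with the lists above, summed to 961 to 1299 in KI ST-HSC, against 425 to 505 in WT ST-HSC, and to 1812 to 2069 in KI GMP-like cells, against 878 to 1409 in WT GMP. Nkg7, a granule protein of cytotoxic cells, made up 88.8% to 90.1% of the sum in KI ST-HSC and 60.6% to 77.5% in WT ST-HSC, and differed by 1.62 (limma adjusted p = 0.00301), whereas Ncr1, Cd2, Cd3d and Cd3e had group means of at most 4.57 and Klrd1 fell. The B lineage list, which holds Cd79a and Cd79b, summed to 210 to 213 in KI ST-HSC, against 856 to 2242 in WT ST-HSC, and to 209 to 390 in KI GMP-like cells, against 595 to 922 in WT GMP. Of the genes of the gates, Kit and Cd48 did not pass, Cd34 fell by 1.41 in ST-HSC and 2.87 in GMP on the log2 scale (limma adjusted p = 0.00103 and 6.98e-06), and in ST-HSC Slamf1 (CD150) differed by 1.92 and Flt3 by -2.69 (limma adjusted p = 0.00132 and 0.0215). By the study's text the GMP-like gate took intermediate CD34, and the part of this gate in the Cd34 difference in GMP was not tested. The ST-HSC were gated as CD150-, and Slamf1 averaged 6.53 in KI ST-HSC and 4.61 in WT ST-HSC.

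Across the 12 arrays, each taken relative to the mean of its population, Fcgr1 and Fcgr3 ran against each other (Pearson's r = -0.94), Fcgr1 ran with Tyrobp (0.9) and Fcgr3 against Tyrobp (-0.88). Fcgr2b ran most closely with Fcgr4 (0.79) and Fcer1g with Hcst (0.73). These coefficients describe 12 arrays that share the genotype difference and carry no test. Among all genes, those closest to Tyrobp by the same measure were Tgfbi, a secreted matrix protein, and Arhgap15, a GTPase-activating protein for Rac (r = 0.985 each). Tgfbi differed by -5.03 in ST-HSC and -2.97 in GMP. Fcgr1 was closest to Bcl2l14, of the Bcl-2 family (0.978), and to Fcgrt (0.967), and Fcgr3 to 1700037H04Rik (0.974) and Csrp3, a LIM protein known from muscle (0.973). For Fcgr2b the closest were Dctpp1, a nucleotide pyrophosphatase (0.96), and Colgalt1, a collagen galactosyltransferase (0.947), and for Fcgr4 Rab10os (0.942) and Fam98c (0.928). Fcer1g was closest to Sec24a, a coat protein of secretory vesicles (0.943), and Agtrap (0.936), Hcst to Map1lc3b, an autophagy protein (0.937), and Gzmc, a granzyme (0.93), and Syk to Zfp385a (0.912) and Timm22 (0.876).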

How the data were processed

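Sorted liver cells were profiled on 12 arrays of the Affymetrix MG430 v2 type, 3 in each of 4 groups. The authors amplified the RNA linearly, hybridized it and processed the arrays by RMA in Bioconductor, of a version not given in the sources used. The deposited table used here holds 1 log2 RMA value for each of 45101 probe sets and array, and RMA compresses differences at low signal. No depth is attached to an array signal, and the precision is limited by how many arrays there are.

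After 64 control probe sets were left out, 45037 were tested, dim ones included. In the platform annotation 34945 carry 1 gene symbol, 932 several and 9160 none. Those with 1 symbol stand for 18193 genes, each by its brightest probe set. The KI minus WT difference of each population, and the GMP difference minus the ST-HSC difference, came from limma 3.58.1 (R 4.3.3) over 12 arrays and 4 group means, with 8 residual degrees of freedom and a prior of 2.52. The script was tested on simulated data.

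The genes and lists were chosen with earlier results of these data known. Named genes are all 8 genes with every probe set, the called genes of the pathway lists (up to 12 per population), the genes of the gates, and the 2 genes most similar to each of the 8; uncalled pathway genes and markers named beside them were chosen after their values were seen. Replicate numbers were not taken to pair samples. Alternatives were fits of 1 population, other normalizations, filters on dim probe sets, SAM written anew, the methods' t-test, limits on the difference, a block for the replicate number, averaging the probe sets of a gene, Xist as a covariate or as a reason to leave out WT arrays, and leaving out each array. Promoter windows are from RefSeq on GRCm38.p6, which held 9 windows of 7 of the 8 genes, with none for Tyrobp; protein sequences were not analysed here.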

Additional observations from a re-analysis of the deposited data

How the results depend on the processing

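Over the alternatives, the calls of Tyrobp in ST-HSC held in all 28. Those of Fcgr1 and Fcgr3 in ST-HSC held except under SAM, under the methods' t-test after Benjamini-Hochberg adjustment (0.141 and 0.147) and at a limit of 2 on the log2 difference. Fcgr1 and Fcgr4 gave no value under either filter on dim probe sets.

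Of the 8 genes, the main test called 1 higher and 2 lower in ST-HSC and 0 higher and 1 lower in GMP. Under SAM, the t-test after adjustment and the limit of 2, these counts were 0 and 1 in ST-HSC, with 0 lower in GMP. Both filters on dim probe sets gave 1 lower in ST-HSC. In GMP, 0 were lower in the fit of 6 arrays, with Xist as a covariate and without the WT arrays of high Xist, and 2 were higher and 2 lower by the t-test at unadjusted p. The mean of the probe sets of a gene gave 1 higher in GMP (Fcer1g, adjusted p = 0.0462 by limma). With the replicate block, 2 were lower in GMP (Fcgr2b added, limma adjusted p = 0.0428) and probe sets called over the array were 394 higher and 490 lower in ST-HSC and 391 and 407 in GMP, against 458 and 538, and 475 and 484, without it. The deviations of same-numbered KI and WT samples from their group means correlated at 0.034 to 0.074 in ST-HSC and -0.038 to -0.004 in GMP, and the labels do not say that numbers pair samples. All 6 ST-HSC samples, and 0 of 6 GMP samples, correlated best with their own number in the other genotype. Same-numbered WT GMP and WT ST-HSC samples correlated at 0.147, 0.164 and 0.062, each best with its own number, and the fit over 12 arrays takes these samples as independent. Leaving out 1 array gave 0 to 1 lower and 0 to 1 higher in GMP.

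For the 71 pathway genes, against 2 higher and 8 lower in ST-HSC and 3 and 6 in GMP, the counts that moved by over 1.5 times were as follows. In ST-HSC the number higher was 1 under both filters on dim probe sets, without probe sets that can bind several genes, at the limit of 2 and without the WT arrays of high Xist, 4 with the mean of probe sets, 7 by the t-test at unadjusted p, and 0 after its adjustment and under SAM. The number lower there was 5 in the fit of 6 arrays, under the log2 filter of 6 and without the high-Xist arrays, 3 with Xist as a covariate, 2 under SAM, and 17 and 0 by the t-test before and after adjustment. In GMP the number higher was 0 in the fit of 6 arrays, under SAM, after t-test adjustment and without the high-Xist arrays, 6 with the mean of probe sets and 8 by the unadjusted t-test. The number lower there was 2 in the fit of 6 arrays and with the Xist covariate, 1 without the high-Xist arrays, 13 by the unadjusted t-test, and 0 after its adjustment and under SAM. Leaving out 1 array gave 2 to 4 higher and 2 to 10 lower in ST-HSC, 1 to 6 and 3 to 8 in GMP, and 0 to 1 for the difference between populations, which was also 1 under the log2 filter of 6, with the mean of probe sets and in both Xist alternatives.

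Signs turned only in values that passed no test. Fcgr4 in ST-HSC was 0.15 with Xist as a covariate. The difference between the populations was -0.09 for Syk with the mean of probe sets, -0.2 without the high-Xist arrays and -0.22 to 0.73 over the fits that left out 1 array, and -0.02 to 0.51 for Hcst over those fits. The cause of these changes was not tested.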

Other observations

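The unequal movement of genes within an array was also looked at for 4 pairs, chosen after their values were seen. Subtracting 1 log2 value from another of the same array removes any shift common to both genes. The value of Fcgr3 minus that of Fcgr2b, the 2 receptors behind the CD16/32 gate, was higher in KI than in WT by 2.98 in ST-HSC and by 2.76 in GMP. Fcgr3 minus Fcgr1 was higher in KI by 3.54 and 0.98, Fcer1g minus Tyrobp by 3.30 and 2.23, and Hcst minus Tyrobp by 3.48 and 2.31, in ST-HSC and GMP in that order. Since the pairs were chosen for genes that moved apart, these values describe the arrays. An exact permutation test gave p = 0.1 for each pair in each population. That is its lowest possible value with 3 against 3 arrays, so it could not pass and decides nothing. Those of Fcgr1 rest on KI values below the median of their arrays, and those of Fcgr2b on the probe set with its largest differences. Leaving out 1 array, the smallest of the GMP values, that of Fcgr3 minus Fcgr1, ranged from 0.79 to 1.28.

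The other marker lists gave the following sums. The megakaryocyte list summed to 973 to 1414 in KI ST-HSC, against 325 to 521 in WT ST-HSC, with 2 of 6 genes higher (Pf4 and Gp1bb). Clec1b, the platelet receptor, rose there too, and the part of megakaryocyte-lineage cells in it was not tested. In GMP the list summed to 458 to 777 in KI GMP-like cells, against 291 to 399 in WT GMP. Gp1bb alone of the list was called there, and it was higher (2.86, limma adjusted p = 0.0026). Clec1b differed by -0.2 in GMP and did not pass. The neutrophil list summed to 945 to 4135 in KI ST-HSC, against 858 to 4093 in WT ST-HSC, the erythroid list to 673 to 833, against 127 to 395, and the hepatocyte list to 231 to 237, against 408 to 881. In KI GMP-like cells the neutrophil list summed to 3623 to 14543, against 4534 to 6612 in WT GMP. The erythroid list summed there to 349 to 680, against 110 to 214, and the hepatocyte list to 114 to 244, against 203 to 546. Of the neutrophil list, Ltf alone was called, lower in GMP (-1.43, limma adjusted p = 0.0127). Of the erythroid list, Alas2 and Rhag were called higher in ST-HSC (limma adjusted p = 0.00684 and 0.00296). Of the hepatocyte list, Afp was called lower in ST-HSC and GMP (limma adjusted p = 0.00582 and 0.0021), in 1 of its 5 probe sets.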
